A study of Mus musculus with 22 samples.

Results

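The 9 genes described here encode transcription factors enriched in liver: Hnf4a, Foxa1, Foxa2, Foxa3, Onecut1, Prox1, Cebpa, Cebpb and Cebpd. They were found by gene symbol, and all 9 were among the 15448 genes of the count table. Each of the 9 also passed the filter on low counts and was among the 14785 genes tested. Polyadenylated RNA was measured in livers of wild-type (WT) male mice of the CD2F1 strain, in 3 groups. The CT group was sham-injected, is labelled as given vehicle and carried no tumour (n = 6). The C26 group was transplanted with C26 cells, a mouse colon carcinoma line that is widely used to model cancer cachexia, the wasting that accompanies some tumours (n = 8). The C26-TDCA group received the same cells and daily intraperitoneal taurodeoxycholic acid (TDCA), a conjugated secondary bile acid, at 10 mg/kg (n = 8). A vehicle is named in the labels for the CT group alone, each library is labelled as a separate mouse liver, and the labels name no batch.

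Liver-enriched transcription factors act together rather than singly. HNF4A is a nuclear receptor that binds and activates a large share of hepatocyte genes, and the FOXA proteins are forkhead factors able to bind DNA in closed chromatin and open it for others. ONECUT1, also known as HNF-6, is a homeodomain factor of hepatocytes and bile duct cells, and PROX1 is a homeobox factor of hepatocytes and of lymphatic endothelium that can act as a corepressor of HNF4A. The C/EBP proteins are basic leucine zipper factors that bind the same DNA element as dimers. C/EBP alpha maintains metabolic genes in the resting liver, whereas C/EBP beta and C/EBP delta are classically induced by cytokines and drive acute phase genes.

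The promoters of 8 of the 9 genes, with 12 start sites, matched the RefSeq table of GRCm38.p6. Cebpd had no entry. The 250 bases before the start are shown for genes whose transcripts moved in opposite directions within a family, and for the pair of Hnf4a starts, since gene counts do not tell those starts apart. Foxa1 lies on the minus strand (chr12:57546112-57546361), as does Foxa3 (chr7:19023540-19023789). Cebpa (chr7:35119043-35119292), Cebpb (chr2:167688665-167688914) and the Hnf4a starts (chr2:163506607-163506856 upstream and chr2:163546905-163547154 downstream) lie on the plus strand. Each stretch runs 5′ to 3′ towards its RefSeq start, and capitals mark matches to the short FOXA, ONECUT, TATA and CCAAT motifs on either strand. The GENCODE M21 annotation places some starts elsewhere. There the Foxa1 gene runs to 57546916, so the Foxa1 stretch lies inside the gene. The Hnf4a gene begins at 163506808, inside the upstream stretch. For the Hnf4a downstream start and the Prox1 starts, the bases checked after the start occurred in no GENCODE M21 transcript of the gene.
Foxa1: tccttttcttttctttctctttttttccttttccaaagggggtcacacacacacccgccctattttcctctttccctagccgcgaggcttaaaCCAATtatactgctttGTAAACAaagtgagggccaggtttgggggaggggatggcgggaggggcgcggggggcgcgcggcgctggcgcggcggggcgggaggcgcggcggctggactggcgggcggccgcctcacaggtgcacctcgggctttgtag
Foxa3: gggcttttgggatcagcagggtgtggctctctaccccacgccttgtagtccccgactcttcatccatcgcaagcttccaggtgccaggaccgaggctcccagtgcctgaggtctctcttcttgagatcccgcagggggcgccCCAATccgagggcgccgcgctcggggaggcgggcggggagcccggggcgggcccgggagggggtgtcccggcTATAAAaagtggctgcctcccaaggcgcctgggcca
Cebpa: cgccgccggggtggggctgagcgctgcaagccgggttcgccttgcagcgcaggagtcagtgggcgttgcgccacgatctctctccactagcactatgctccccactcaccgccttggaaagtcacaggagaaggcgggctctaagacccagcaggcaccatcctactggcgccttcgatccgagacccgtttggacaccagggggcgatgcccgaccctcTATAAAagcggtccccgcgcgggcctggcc
Cebpb: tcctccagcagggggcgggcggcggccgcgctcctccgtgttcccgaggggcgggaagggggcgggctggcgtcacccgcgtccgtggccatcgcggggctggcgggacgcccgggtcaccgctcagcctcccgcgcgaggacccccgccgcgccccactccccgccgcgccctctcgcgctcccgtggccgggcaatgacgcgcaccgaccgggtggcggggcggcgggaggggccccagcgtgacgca
Hnf4a upstream start: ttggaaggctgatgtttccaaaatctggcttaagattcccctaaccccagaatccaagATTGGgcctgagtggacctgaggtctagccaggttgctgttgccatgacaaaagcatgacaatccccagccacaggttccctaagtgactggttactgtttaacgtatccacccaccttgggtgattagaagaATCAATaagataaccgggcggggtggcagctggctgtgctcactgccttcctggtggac
Hnf4a downstream start: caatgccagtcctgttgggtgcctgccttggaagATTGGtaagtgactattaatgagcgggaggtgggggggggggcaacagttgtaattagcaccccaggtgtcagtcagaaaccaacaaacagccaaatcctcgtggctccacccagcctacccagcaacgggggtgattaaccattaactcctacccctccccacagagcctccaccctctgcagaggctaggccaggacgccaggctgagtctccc

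In the 300-base windows that run from 250 bases before to 50 bases after each start, 9 short motifs were sought on both strands. No match was found in any of the 12 windows for TTGCNNAA (C/EBP), TTCNNNGAA (STAT), GGNNTTTCC (NF-kB), CAAAGTCC (HNF4) or TGACGTCA (cyclic AMP response element). Among all 32851 promoter windows of the table these were held by 10.8%, 8.3%, 5.82%, 1.42% and 1.79%, in that order. The FOXA motif TGTTTAC, held by 3.65% of all windows, occurred in that of Foxa1 alone, as GTAAACA with its first base at -141 from the start. The ONECUT motif ATTGAT, held by 7.54% of all windows, occurred at -213 in the most upstream Foxa2 window and at -59 in that of the upstream Hnf4a start. TATAAA, held by 13.6% of all windows, lay at -30 for Cebpa, at -36 for Foxa3 and 22 bases after the Cebpb start. On the opposite strand, as TTTATA, it lay at -34 for a Prox1 start and at -208 for a Foxa2 start. CCAAT, held by 37.4%, occurred in 6 of the 12 windows and shares no letters with the other matches. Over the 250 bases, GC content was 66.4% with 22 CpG dinucleotides for Cebpa and 81.6% with 41 for Cebpb, against a median of 52.4% over all promoter windows. A match describes letters only, and a missing match concerns these letters in these windows.

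Libraries held 16.5 to 28.3 M counts. A gene with 3 counts was thus at 0.18 CPM (counts per M counts) in the smallest library and at 0.11 in the largest. The members were far above this: the lowest count of any member in any library was 35, for Cebpd in CT 01. Levels are given as CPM after TMM scaling, which sets the typical gene equal between libraries. TMM factors were 1.15 to 1.20 in CT, 0.878 to 0.982 in C26 and 0.890 to 1.01 in C26-TDCA, and therefore followed the tumour. If libraries are scaled by their total counts instead, an alternative added after the data had been seen, the median log2 fold change of all genes moves from -0.003 to -0.34 in C26 against CT and from 0.01 to -0.30 in C26-TDCA against CT. Which of these scalings reflects RNA per cell cannot be told from the counts, and in bulk tissue fewer cells of a type and less RNA per cell cannot be told apart. The differences of the members from CT in C26 livers are therefore given under both scalings.

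In livers of C26 mice all 9 factors passed the test against CT, 5 higher and 4 lower, and the changes ran in opposite directions within families. Cebpd rose 5.85-fold, Foxa3 rose 1.79-fold, Cebpb rose 1.60-fold, Prox1 rose 1.34-fold and Hnf4a rose 1.32-fold. Foxa1 fell to 0.384 of its CT level, Onecut1 to 0.605, Foxa2 to 0.698 and Cebpa to 0.732. The test was edgeR's quasi-likelihood test with Benjamini-Hochberg adjustment over all genes, at an adjusted p of 0.05. Change was common at this threshold: 28.9% of all tested genes were called higher and 29.2% lower. Under library totals 3 members were higher (Cebpd, Foxa3 and Cebpb), 4 were lower, and Hnf4a and Prox1 passed in neither direction, beside 15.5% of all genes higher and 53.2% lower. No member changed its sign between the scalings.

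**Figure D1:**
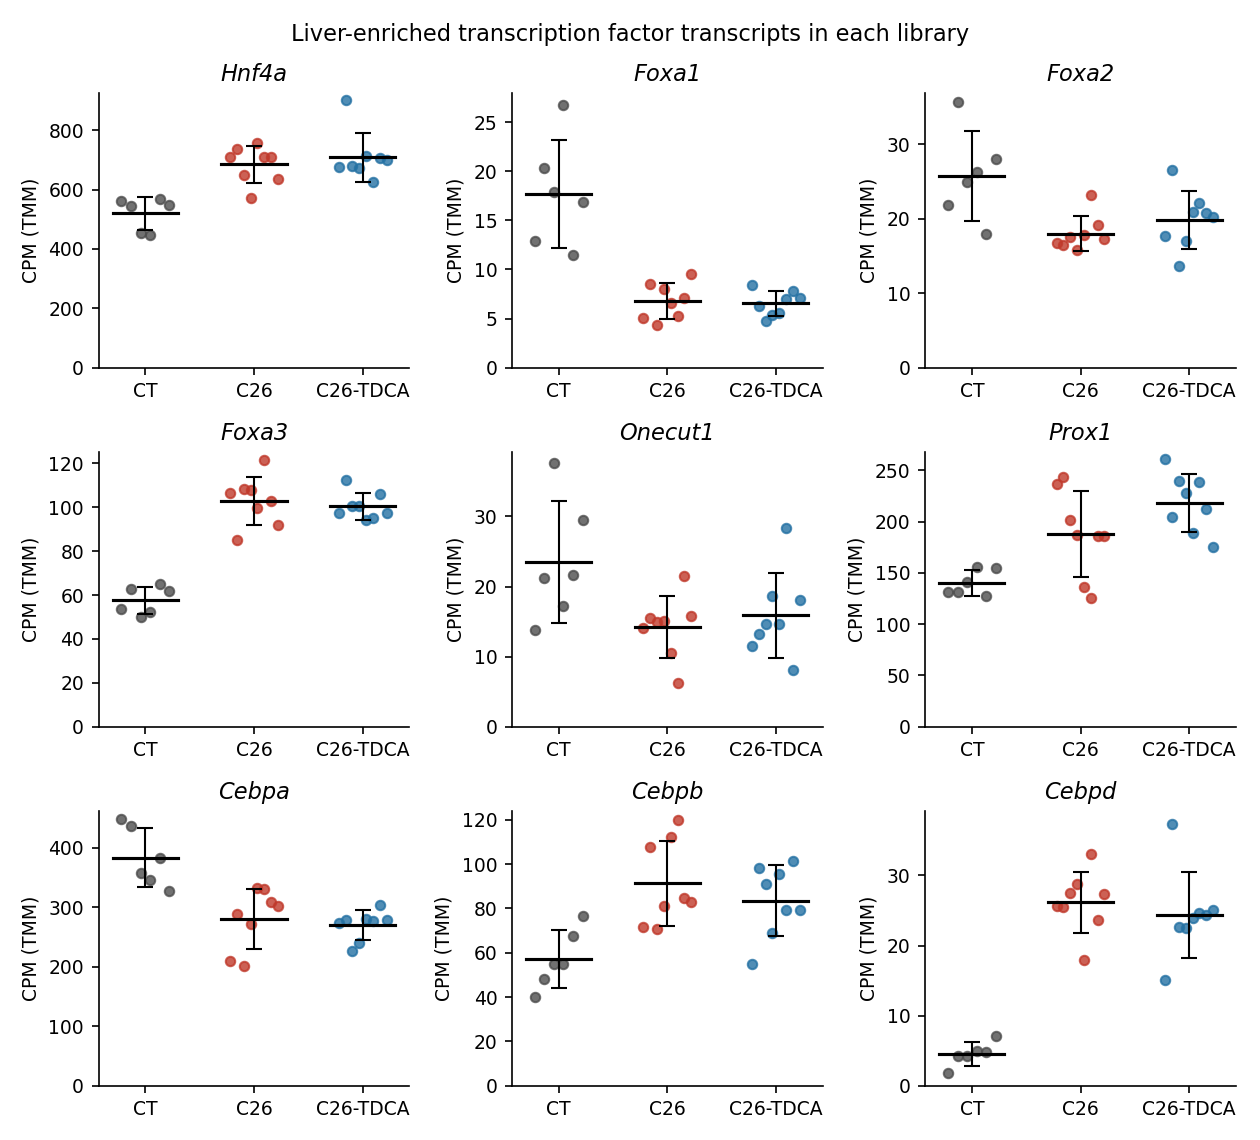
Each point is 1 library, with TMM-scaled CPM on the vertical axis and the groups CT (n = 6), C26 (n = 8) and C26-TDCA (n = 8) on the horizontal axis; bars are means and whiskers the SD. For Hnf4a, Foxa1, Foxa3 and Cebpd every tumour library lies outside the range of the CT libraries.

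Hnf4a (ENSMUSG00000017950, chromosome 2, 163506808 to 163572910, plus strand, GRCm38) was the factor with the most counts. Its level ranged from 446 to 569 CPM in CT, with a median of 546. In C26 it ranged from 572 to 756 CPM, with a median of 709, and in C26-TDCA from 626 to 901, with a median of 689. The lowest C26 library lay just above the highest CT library, and the highest value of all, in C26-TDCA 02, stood well apart from its group. The difference between C26 and CT was 0.40 (log2, SE 0.08, edgeR adjusted p = 0.000278). With library totals it was 0.05 (adjusted p = 0.524), and the levels overlapped, at 528 to 669 CPM of the total counts in CT and 561 to 705 in C26. Hnf4a was thus not lower in C26 under either scaling, and whether it passed the test as higher depended on the scaling.

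The antisense transcript of the locus, Hnf4aos, fell by 0.98 on the log2 scale (adjusted p = 0.000147), from a mean of 5.74 to 2.92 CPM. It shares no exon base with Hnf4a in the annotation used. The strand setting of the counting is not given in the sources used here, so reads of the remaining overlapping partners cannot be separated from those of the members.

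Among the FOXA genes, Foxa1 (ENSMUSG00000035451, chromosome 12, 57540628 to 57546916) fell furthest. It ranged from 11.4 to 26.8 CPM in CT with a median of 17.4, and from 4.34 to 9.51 in C26 with a median of 6.87. No C26 library reached the lowest CT library. The difference was -1.38 (log2, SE 0.18, edgeR adjusted p = 5.44e-07), and -1.72 with library totals.

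Foxa2 (ENSMUSG00000037025, chromosome 2, 148042877 to 148046969), the FOXA factor linked to fasting metabolism and bile acid homeostasis, ranged from 17.9 to 35.7 CPM in CT with a median of 25.6. In C26 it ranged from 15.8 to 23.1 CPM with a median of 17.4. The groups overlapped because CT 07 was as low as the C26 libraries and C26 06 was higher than the rest of its group. Foxa2 fell by 0.52 on the log2 scale (SE 0.13, edgeR adjusted p = 0.00165), and by 0.87 with library totals.

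Foxa3 (ENSMUSG00000040891, chromosome 7, 19013284 to 19023538), the FOXA factor most abundant in adult liver, moved the other way. It ranged from 50.03 to 64.86 CPM in CT with a median of 57.7, and from 85.3 to 121 in C26 with a median of 105. The ranges were well separated. Foxa3 rose by 0.84 on the log2 scale (SE 0.08, edgeR adjusted p = 1.41e-09), and by 0.50 with library totals, where its ranges still did not overlap.

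Since these 3 genes moved apart, the makeup of their summed level changed, a quantity that no scaling of libraries affects. Per kilobase of exon, Foxa3 made up 63.8% ± 6.19 (SD, n = 6) of the summed FOXA level in CT and 83.9% ± 1.75 (SD, n = 8) in C26. The share of Foxa1 was 11.9% ± 3.44 in CT and 3.47% ± 1.18 in C26, and that of Foxa2 was 24.3% ± 3.76 and 12.6% ± 1.05. The ratio of Foxa3 to Foxa1 per kilobase ranged from 3.20 to 9.27 in CT and from 15.8 to 40.8 in C26, without overlap.

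Onecut1 (ENSMUSG00000043013, chromosome 9, 74861921 to 74891781) was the most variable member in every group but CT, where Cebpd was slightly more so. It ranged from 13.8 to 37.6 CPM in CT with a median of 21.4, and from 6.23 to 21.56 in C26 with a median of 15.03. Several libraries of each group lay within the range of the other. Onecut1 fell by 0.72 on the log2 scale (SE 0.25, edgeR adjusted p = 0.0145), and with library totals the difference was -1.06 (adjusted p = 0.000756). Under TMM scaling the call rested on the highest CT library: without CT 05 the difference was -0.54 (adjusted p = 0.0684). A same-strand noncoding gene, Gm20649, shares 2171 of the 4113 exon bases of Onecut1 and is absent from the count table. How reads from shared bases were assigned is not given in the sources used here. The Onecut1 counts may therefore lack reads or hold reads of Gm20649.

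Prox1 (ENSMUSG00000010175, chromosome 1, 190118035 to 190170714, minus strand) ranged from 128 to 155 CPM in CT with a median of 136. In C26 it ranged from 125 to 243 CPM with a median of 186. Most C26 libraries lay above CT, but C26 05 and C26 06 did not, and the C26 group was the more variable (coefficient of variation 22.3% against 8.90%). Prox1 rose by 0.42 on the log2 scale (SE 0.12, edgeR adjusted p = 0.00527). With library totals the difference was 0.08 (adjusted p = 0.587), so that this call, like that of Hnf4a, depended on the scaling. Prox1os, an antisense gene sharing 133 exon bases, did not pass the test (0.16, adjusted p = 0.418).

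Prox1 is also a factor of lymphatic endothelium. Of 8 markers of those cells, 5 were tested in C26 against CT, of which 3 were higher, 1 lower and 1 not called. Their summed level was 82.1 to 113 CPM in CT and 84.1 to 127 in C26, and it joins opposite changes. The largest part, Reln, also stands among the stellate cell markers. Its median was 73.4 CPM of the total counts, without TMM, in CT and 45.0 in C26. On the same scale Flt4 was at 28.5 and 36.3, and Gja1 at 3.01 and 11.7. The defining marker Pdpn had a median of 0.267 CPM in CT and 0.112 in C26, also of the total counts. The part of such cells in the Prox1 values was not tested.

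The C/EBP genes moved apart in the same way as the FOXA genes. Cebpa (ENSMUSG00000034957, chromosome 7, 35119293 to 35121928, plus strand) ranged from 327 to 448 CPM in CT with a median of 370, and from 202 to 333 in C26 with a median of 295. The groups met only at their edges, where C26 05 and C26 06 came just above CT 08. Cebpa fell by 0.45 on the log2 scale (SE 0.11, edgeR adjusted p = 0.000943), and by 0.79 with library totals, where the ranges no longer overlapped. Gm45091, an antisense gene that shares 51 exon bases with Cebpa, fell too, from a mean of 1.19 to 0.260 CPM.

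Cebpb (ENSMUSG00000056501, chromosome 2, 167688915 to 167690418, plus strand) ranged from 40.1 to 76.7 CPM in CT with a median of 55.1. In C26 it ranged from 70.6 to 120 CPM with a median of 83.7. CT 08 alone among the CT libraries reached into the C26 range. Cebpb rose by 0.68 on the log2 scale (SE 0.15, edgeR adjusted p = 0.000542), and by 0.34 with library totals (adjusted p = 0.0370). Tmem189, a gene on the other strand that shares 312 exon bases with Cebpb, did not pass the test (0.13, adjusted p = 0.549).

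Cebpd (ENSMUSG00000071637, chromosome 16, 15887286 to 15891031, plus strand) changed most. It ranged from 1.74 to 7.03 CPM in CT with a median of 4.48, and from 17.98 to 33.09 in C26 with a median of 26.6. The lowest C26 library was far above the highest CT library. Cebpd rose by 2.55 on the log2 scale (SE 0.21, edgeR adjusted p = 1.56e-10), a change larger in size than that of 96.4% of the genes tested, and by 2.21 with library totals. Spidr, a gene on the other strand that shares 562 exon bases, rose by 0.43 from a mean of 4.20 CPM in CT to 5.66 in C26. Cebpd had means of 4.47 and 26.2 CPM, and the part of shared reads in them was not tested. With library totals Spidr differed by 0.10 (adjusted p = 0.554) and did not pass.

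Within single livers the balance of the C/EBP genes shifted from Cebpa towards Cebpb and Cebpd. Per kilobase of exon, Cebpa made up 78.6% ± 5.70 (SD, n = 6) of their summed level in CT and 61.1% ± 2.83 (SD, n = 8) in C26. The share of Cebpb was 20.8% ± 5.44 in CT and 34.8% ± 2.71 in C26, and that of Cebpd 0.658% ± 0.270 and 4.14% ± 1.02. The ratio of Cebpb to Cebpa per kilobase ranged from 0.157 to 0.412 in CT and from 0.481 to 0.657 in C26, so the groups did not overlap although both genes did when taken alone. Cebpa remained the most abundant of the 3 in every library. All 3 share exon bases with genes on the other strand, and the effect of this on the shares was not tested.

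**Figure D2:**
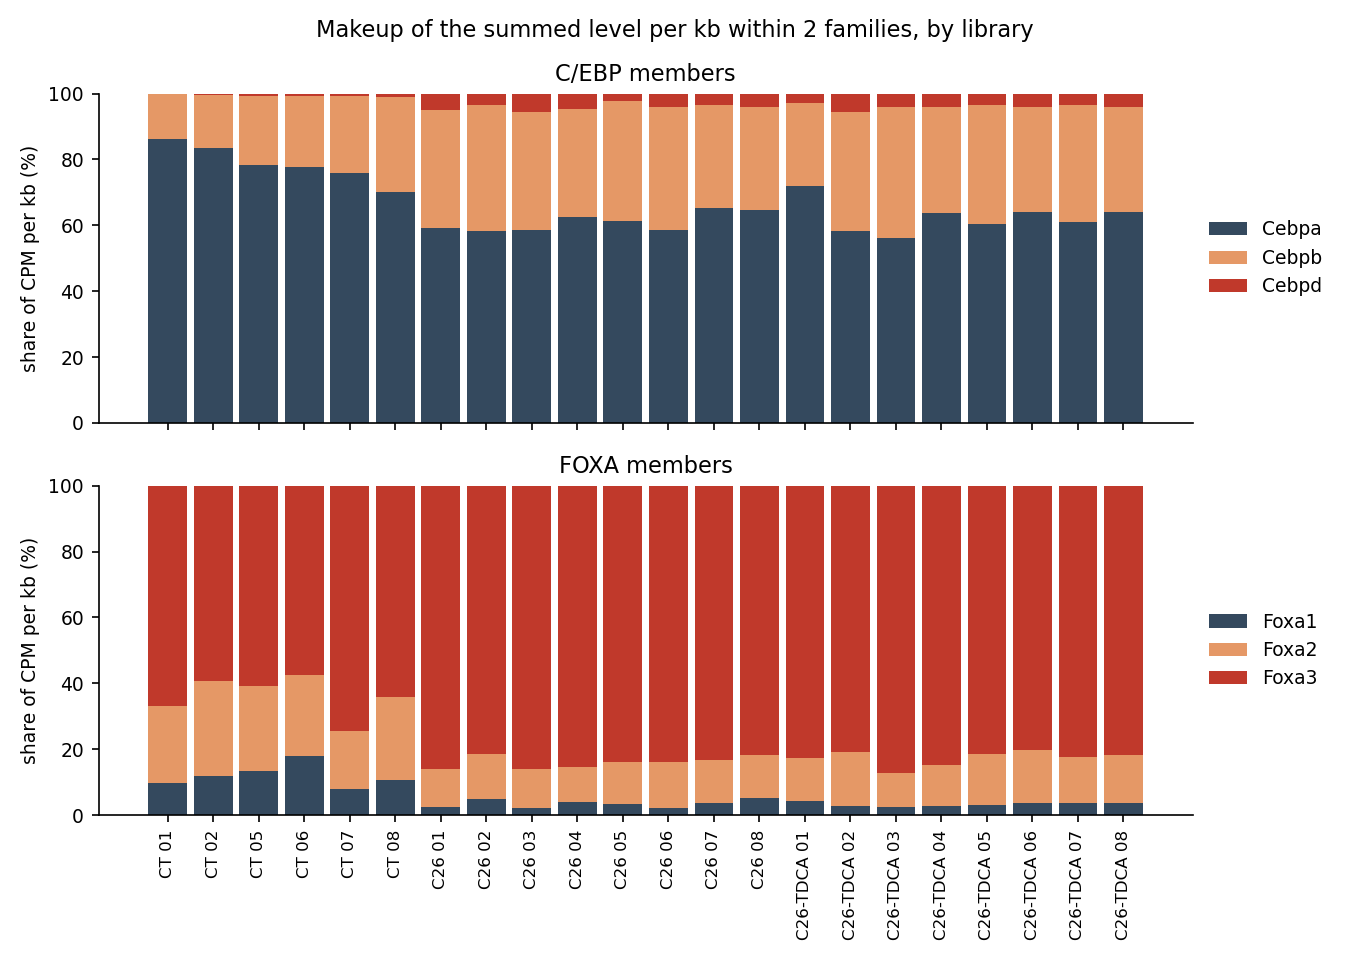
Each bar is 1 library, and the segments give the share (%) of each gene in the summed CPM per kilobase of exon of its family, for Cebpa, Cebpb and Cebpd above and Foxa1, Foxa2 and Foxa3 below. Mean Cebpa shares are 78.6% in CT and 61.1% in C26, and mean Foxa3 shares 63.8% and 83.9%.

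Cebpb and Cebpd are also expressed by myeloid cells, whose markers were higher in tumour-bearing mice. Of 12 Kupffer cell markers 11 rose in C26 and none fell, and their summed level was 298 to 345 CPM in CT and 488 to 747 in C26. Of 12 monocyte and neutrophil markers 9 were tested and 8 rose, with a summed level of 2.99 to 6.91 CPM in CT and 19.9 to 51.4 in C26. With library totals 10 Kupffer cell markers and 7 monocyte and neutrophil markers were higher, and none was lower. The neutrophil marker Elane was at a median of 0 CPM of the total counts, without TMM, in CT and 0.308 in C26. Of 12 hepatocyte markers 3 rose, 5 fell and 4 did not pass, and with library totals 3 were higher and 9 lower. Their sum of 68666 to 78532 CPM in CT and 59830 to 79667 in C26 joins opposite changes, since Alb fell from a mean of 42189 to 15181 CPM and Fgb, a fibrinogen gene of the acute phase, rose from 3792 to 33906.5. The part of myeloid cells in the Cebpb and Cebpd values was not tested.

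FOXA factors and ONECUT1 are shared with bile duct cells. Of 12 cholangiocyte markers, 9 were tested and 5 were higher in C26 (3 with library totals), and their summed level went from 38.8 to 57.7 CPM in CT to 265 to 796 in C26. Most of that sum was Spp1, a secreted phosphoprotein gene that rose from a mean of 18.8 to 411 CPM. Sox9, a factor of bile duct cells, rose from a mean of 1.59 to 27.3 CPM, and the mucin gene Muc1 from 0.955 to 3.24. The keratin genes Krt19 and Krt7 had medians of 0.569 and 0.485 CPM of the total counts, without TMM, in CT and 0.510 and 0.495 in C26. Sinusoidal endothelial markers were higher for 10 of 12 genes and stellate cell markers for 8 of 12, with 2 stellate markers lower. With library totals 7 sinusoidal markers were higher and 2 lower, and 5 stellate markers were higher and 2 lower. Of 10 intestinal epithelium markers, sought because C26 cells derive from colon, 2 were in the count table, and 1 was higher and 1 lower. The part of these cells in the values of Foxa1, Foxa2 and Onecut1 was not tested.

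Per kilobase of exon, which allows levels of different genes to be compared, the order of the members differed between CT and the tumour groups. In CT, Cebpa led at 145 ± 18.9 CPM per kilobase (SD, n = 6), followed by Hnf4a at 108 ± 11.5, Cebpb at 38.0 ± 8.77, Foxa3 at 28.3 ± 3.08 and Prox1 at 16.7 ± 1.49. Foxa2 at 10.9 ± 2.55, Onecut1 at 5.71 ± 2.11, Foxa1 at 5.31 ± 1.66 and Cebpd at 1.19 ± 0.453 came below. The ranges of Cebpb and Foxa3 overlapped, as did those of Foxa2 and Onecut1 and those of Onecut1 and Foxa1. Every other neighbour in the order was apart. Exon bases shared with other genes, 2171 of 4113 for Onecut1 and 312 of 1504 for Cebpb, may alter levels per kilobase. Their effect on the order in any group was not tested.

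In C26, Hnf4a led at 142 ± 12.7 CPM per kilobase (SD, n = 8) and Cebpa came next at 106 ± 19.2. Cebpd at 6.99 ± 1.16 moved above Onecut1 at 3.45 ± 1.08 and Foxa1 at 2.04 ± 0.553. Ranges of neighbours overlapped in C26 except between Foxa3 at 50.6 ± 5.41 and Prox1 at 22.4 ± 4.98, and between Prox1 and Foxa2 at 7.58 ± 0.975. The C26-TDCA group had the same order, with Hnf4a at 147 ± 17.0 and Cebpa at 102 ± 9.51 apart from each other. With the length of the longest transcript in place of the union of exons the order was the same in each group.

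Of 9 relatives from the same families, 6 were tested in C26 against CT, of which 3 were higher and 1 was lower, with a median log2 fold change of 0.17 beside -0.003 over all genes. With library totals the median was -0.17, and 1 relative was higher and 2 lower. Ddit3, a C/EBP family member of the integrated stress response, rose by 0.80 (adjusted p = 0.000175), and by 0.46 with library totals. Cebpg, a C/EBP dimer partner, rose by 0.30 under TMM scaling, but its sign turned with library totals, at -0.04 (adjusted p = 0.656). Onecut2, the paralog of Onecut1, fell by 0.31 on the log2 scale, and by 0.65 with library totals.

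Among 34 other regulators of the liver, 7 rose, 14 fell and 13 did not pass, with a median of -0.25. Xbp1, a factor of the unfolded protein response, rose by 1.10, and the endodermal factor Gata6 rose by 1.75 from a mean of 4.92 to 16.4 CPM. Foxo3, a forkhead factor restrained by insulin, fell by 1.14 on the log2 scale, and Hlf, a factor of the circadian output, fell by 1.41. With library totals 6 of the 34 were higher and 24 lower. Lower calls outnumbered higher ones in this list under both scalings. For this list and those below, the shares over all genes were 28.9% higher and 29.2% lower under TMM. With library totals they were 15.5% and 53.2%, so that lower calls were then the more common ones in general.

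Genes upstream or alongside the C/EBP factors were mostly higher. Of 20 partners and inducers, 14 rose, none fell and 6 did not pass, with a median log2 fold change of 0.83. Stat3, the factor activated by interleukin 6 signalling, rose by 1.87 from a mean of 92.8 to 338 CPM. Socs3, its feedback inhibitor, rose by 4.92, and the AP-1 member Fosl2 by 2.21. Il1r1, the interleukin 1 receptor, rose by 2.37. With library totals 11 of the 20 were higher and 4 lower.

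Textbook targets of the members did not move as a single set. Of 27 HNF4A targets, 6 rose, 14 fell and 7 did not pass, with a median of -0.37, beside 28.9% of all genes higher and 29.2% lower. Hnf4a itself was not lower under either scaling, and the activity of HNF4A was not measured. Slc10a1, the sinusoidal bile acid uptake transporter, fell by 1.42 on the log2 scale (adjusted p = 1.03e-11). Otc, a urea cycle enzyme, fell by 1.30, the cytochrome Cyp2d9 fell by 1.77, and Ttr, which encodes the carrier transthyretin, fell by 1.80. With library totals 3 of the 27 were higher and 20 lower, beside 15.5% of all genes higher and 53.2% lower.

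Of 11 FOXA targets tested, 2 rose, 6 fell and 3 did not pass, with a median of -0.41. Alb, the albumin gene, fell by 1.47 on the log2 scale, and Cyp2f2, a periportal cytochrome, fell by 2.93. Ttr stands in this list as well. Of 15 C/EBP alpha targets, 4 rose, 9 fell and 2 did not pass, with a median of -0.82. Ugt1a1, which conjugates bilirubin, fell by 1.60, and Gys2, the liver glycogen synthase, fell by 1.90; Otc and Alb are shared with the lists above.

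Targets of C/EBP beta and C/EBP delta, which are mainly acute phase genes, rose in 16 of 17 cases, and none fell, with a median log2 fold change of 4.11. Itih4 rose by 4.02, the haptoglobin gene Hp by 4.31, and the orosomucoid genes Orm1 and Orm2 by 4.17 and 8.75, with the caution that reads of these near-identical copies can be exchanged. With library totals 16 of the 17 were higher and 1 was lower. Many of these genes also respond to STAT3 and NF-kB, so the list does not isolate C/EBP activity. The target lists were chosen with earlier results of these data known, and their counts describe these lists only.

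Genes of the fetal liver were examined because loss of adult liver factors can accompany their return. Of 9, 5 were tested, and 3 rose while 2 did not pass. Igdcc4 rose from a mean of 0.139 CPM in CT, which is about the level of 3 counts, to 60.1 in C26. The desaturase gene Scd2 rose by 0.91 and Igf2bp3 by 1.06. Afp, the alpha-fetoprotein gene, did not pass the test under TMM scaling (-0.18, means of 3.75 and 3.31 CPM). With library totals Afp was lower (-0.52, edgeR adjusted p = 0.0246), and of the 5 genes tested 3 were higher and 1 was lower.

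**Figure D3:**
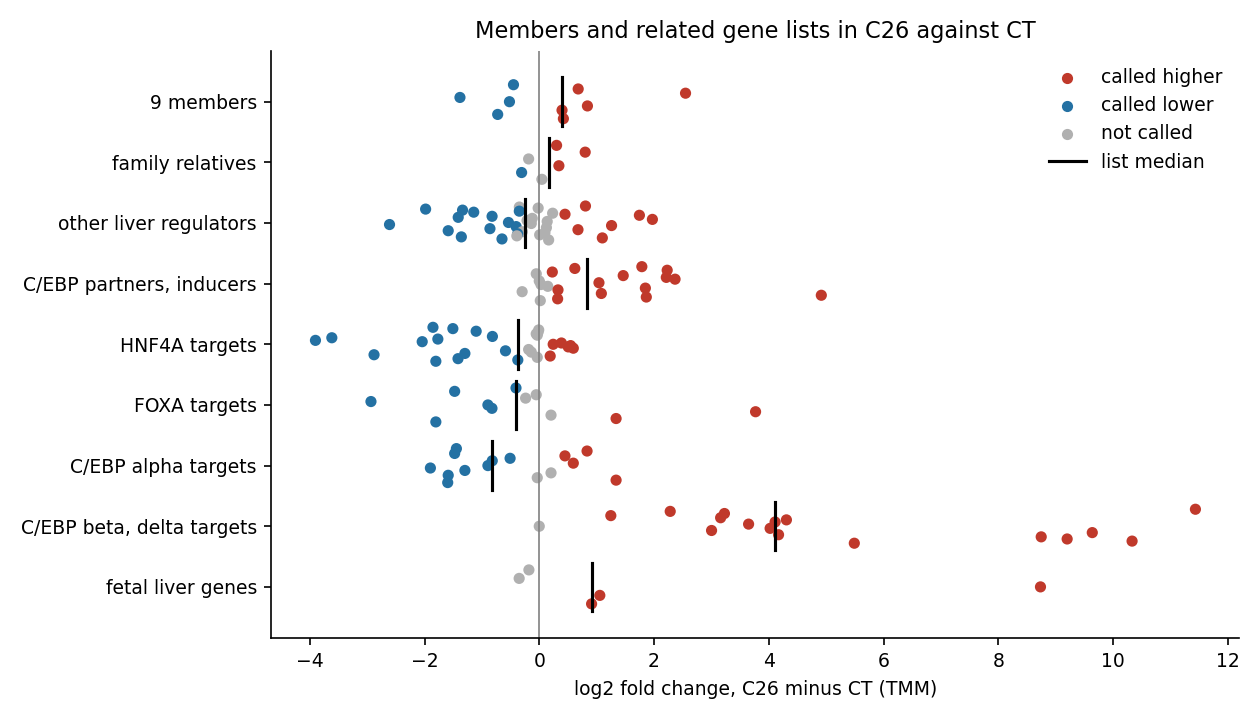
Each point is 1 gene placed by its log2 fold change between C26 and CT (TMM scaling), in rows for the 9 members and 8 related lists; red and blue mark genes called higher and lower, grey genes not called, and the black bar the median. The C/EBP beta and delta targets lie to the right with a median of 4.11, while the C/EBP alpha targets have a median of -0.82.

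In the C26-TDCA group the members differed from CT much as in C26, and both comparisons use the same 6 CT libraries. Of the 9, 5 were called higher and 3 lower, beside 28.7% and 28.2% of all genes, and Onecut1 did not pass. Cebpd rose by 2.45 on the log2 scale (SE 0.20, edgeR adjusted p = 2.92e-10), Foxa3 by 0.80, Prox1 by 0.64, Cebpb by 0.55 and Hnf4a by 0.45. Foxa1 fell by 1.44, Cebpa by 0.51 and Foxa2 by 0.37. The Foxa2 call (adjusted p = 0.0180) was lost without CT 02, where the difference was -0.26 (adjusted p = 0.0842). Onecut1 differed by -0.56 (SE 0.25, adjusted p = 0.0547) and passed under several alternatives.

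With library totals, 3 members were higher and 4 lower in C26-TDCA against CT, beside 16.4% and 50% of all genes. Foxa3 was then higher by 0.50 (adjusted p = 5.35e-07). Hnf4a then differed by 0.14 (adjusted p = 0.102) and Cebpb by 0.24 (adjusted p = 0.140), neither of which passed, while Prox1 at 0.33 (adjusted p = 0.0322) and Onecut1 at -0.86 (adjusted p = 0.00445) did. Without any overlap between libraries, under TMM scaling, were 6 of 9 members here (Hnf4a, Foxa1, Foxa3, Prox1, Cebpa and Cebpd) and 4 of 9 in C26 against CT (the same without Prox1 and Cebpa). Over all genes the ranges did not overlap for 31.6% and 29.5%, in that order.

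Prox1 in C26-TDCA ranged from 175 to 261 CPM with a median of 220, above every CT library. Cebpd ranged from 15.04 to 37.34 CPM with a median of 24.1, and Cebpb from 54.7 to 101 with a median of 85.3. Foxa1 ranged from 4.75 to 8.39 CPM, Foxa2 from 13.6 to 26.6, Foxa3 from 94.0 to 112, Onecut1 from 8.08 to 28.4 and Cebpa from 226 to 304. These ranges all overlapped those of C26.

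TDCA treatment of tumour-bearing mice changed no member at this threshold. None of the 9 was called in C26-TDCA against C26, and none had an unadjusted p below 0.05, by edgeR's quasi-likelihood test; DESeq2 also called 0. Over all genes 1.73% were called higher and 0.237% lower, and the ranges of the libraries did not overlap for 0.149%, against 0 of 9 members. A missed threshold does not show equal levels, and the 95% intervals give the differences still allowed.

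For Hnf4a the log2 difference between C26-TDCA and C26 was 0.05 (95% interval -0.10 to 0.20), and for Foxa3 it was -0.04 (-0.17 to 0.10). Cebpa differed by -0.06 (-0.25 to 0.14), Cebpb by -0.13 (-0.40 to 0.14) and Cebpd by -0.10 (-0.43 to 0.22). The difference was 0.14 (-0.10 to 0.39) for Foxa2, -0.05 (-0.40 to 0.29) for Foxa1 and 0.16 (-0.29 to 0.62) for Onecut1. Prox1 came nearest to a difference, at 0.22 (95% interval -0.0045 to 0.44, adjusted p = 0.355), and this fell to 0.02 once a trend of the fold changes with transcript length and GC content was removed.

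**Figure D4:**
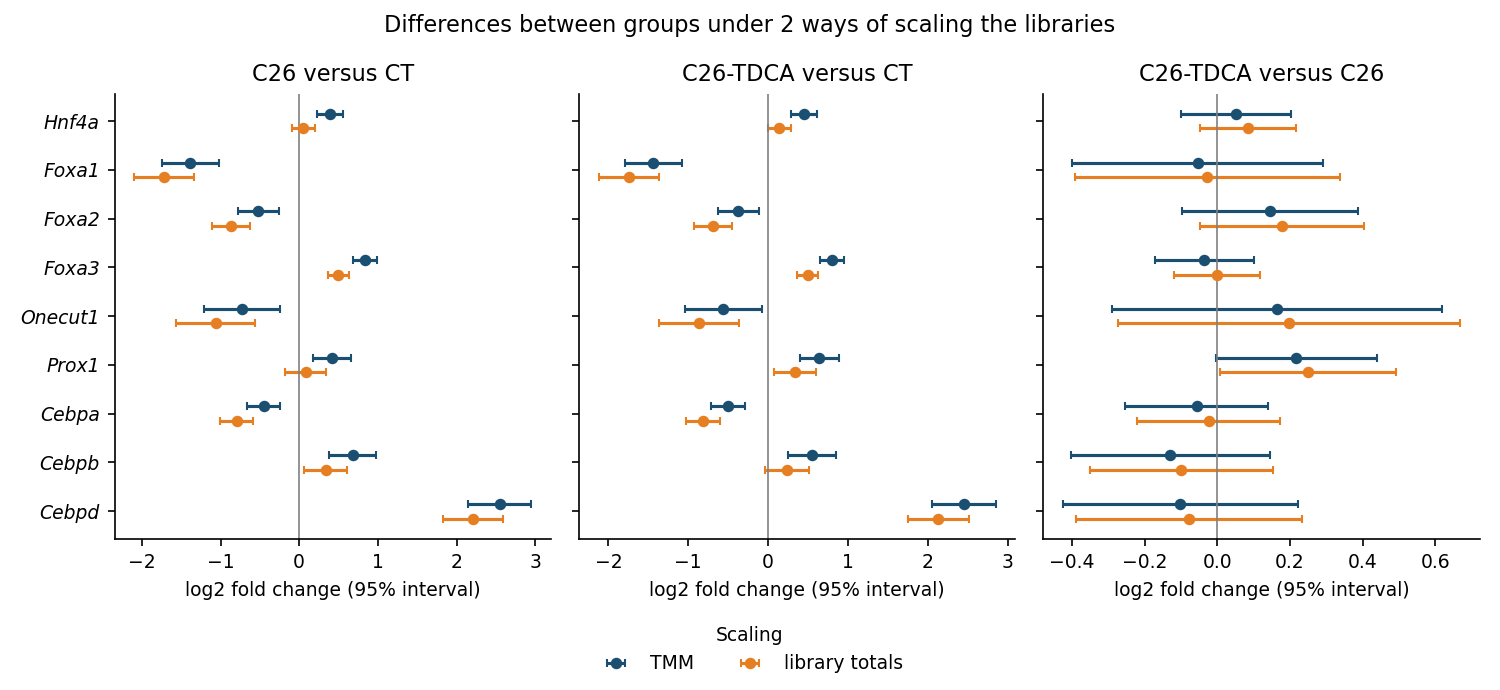
Points are log2 fold changes of the 9 members and bars their 95% intervals, in panels for C26 against CT, C26-TDCA against CT and C26-TDCA against C26 (the last with a narrower axis); blue uses TMM and orange library totals. Against CT, library totals place every member lower, and the Hnf4a value in C26 goes from 0.40 to 0.05.

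Among related genes, 4 passed in C26-TDCA against C26, all higher. Onecut2 was higher by 0.39 (log2, adjusted p = 0.0377), Zbtb20, a repressor of fetal liver genes, by 0.65 (adjusted p = 0.0268), the glucocorticoid receptor gene Nr3c1 by 0.37 (adjusted p = 0.0395) and Apob, the structural protein of very-low-density lipoproteins, by 0.38 (adjusted p = 0.0319). Once the trend with length and GC was taken out none of the 4 passed, and the values were -0.01, 0.18, 0.16 and 0.02, in that order. No partner or inducer of C/EBP, no C/EBP target and no fetal gene was called between these groups by edgeR. An unadjusted p below 0.05 was found for 2 of the 20 partners and inducers, 1 of the 15 C/EBP alpha targets, 1 of the 17 C/EBP beta and delta targets and 1 of the 5 fetal genes.

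The levels of the members were also compared with each other across livers. Over 22 libraries centred on their group means, 36 pairs of members were correlated, and none had an adjusted p below 0.05 by Pearson's r in a permutation test of 100000 draws within groups. By Spearman's rho, Prox1 and Cebpa had an adjusted p of 0.0126 (rho = -0.75, permutation p = 0.00035), with r = -0.61 (p = 0.0140, adjusted p = 0.251). Their r was -0.50 without the 2 libraries farthest from the Prox1 median, -0.83 within CT, -0.66 within C26 and -0.39 within C26-TDCA. Once the trend with length and GC was taken out it was -0.17, and Prox1 and Cebpa lie at opposite ends of the members in transcript GC content but for Cebpb, at 45.3% and 62.6%. Cebpb and Cebpd had the lowest p by Pearson's r, with r = 0.58 (p = 0.00742, adjusted p = 0.251) and rho = 0.30, with 0.89 in CT, -0.14 in C26 and 0.76 in C26-TDCA.

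**Figure D5:**
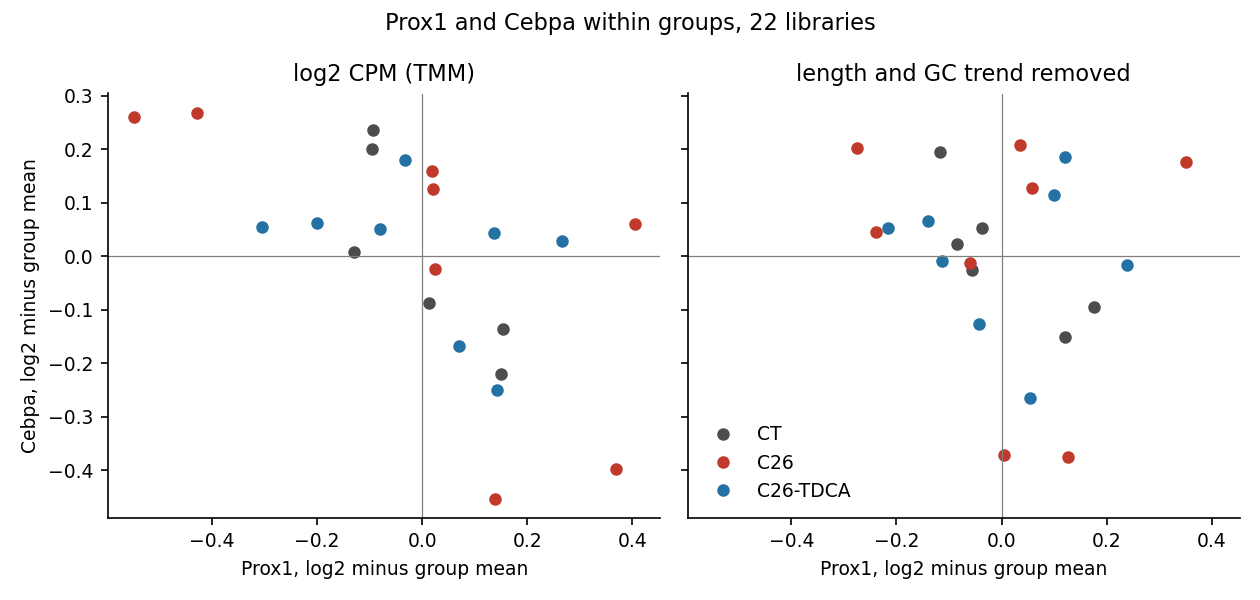
Each point is 1 of 22 libraries, with log2 CPM of Prox1 (horizontal) and Cebpa (vertical) given relative to the mean of its own group; the left panel uses TMM-scaled values and the right panel values after removal of that trend. The relation on the left (r = -0.61) is weaker on the right (r = -0.17).

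Among 7388 genes with a mean of at least 10 CPM, those most like each member over the 22 libraries, after centring on group means, were found by Pearson's r; they share libraries and depth, and are given as a description. For Hnf4a they were Zfp746 (r = 0.79), Cps1 (0.79) and Ablim3 (0.78), and for Foxa3 they were Cfp (0.83), Prelid2 (0.83) and Nudt19 (0.81). Foxa1 was most like Rap2a (0.76), Tsc22d1 (0.73) and Lonp1 (0.72), and Foxa2 was most like Phlda1 (0.70), Vapb (0.68) and Mob3c (0.68). For Onecut1 they were Gpatch8 (0.81), Arid5b (0.80) and Zdhhc5 (0.78). Prox1 had the highest values, with Xpo4 (0.90), Lmbrd2 (0.89) and Selenoi (0.89), which were 0.77, 0.76 and 0.74 after that trend was taken out. Cebpa was most like Zfyve21 (0.89), Pcx (0.88) and Cdhr5 (0.88), Cebpb most like Mrpl39 (0.84), Bckdhb (0.83) and Psmd13 (0.83), and Cebpd most like Errfi1 (0.80), Ftsj3 (0.78) and Dda1 (0.75).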

How the data were processed

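Liver RNA of 22 mice was analysed from the raw read counts per Ensembl gene that the authors deposited, with 1 column per mouse assigned by its name. The submitters' processing notes name Trimmomatic 0.40, HISAT2 2.2.1, featureCounts 2.0.3 and build GRCm38. No source used here gives the strand setting, the annotation release or the treatment of multiply mapped reads. Symbols and positions came from GENCODE M21.

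Counts were filtered with filterByExpr (minimum count 10), scaled by TMM and tested with edgeR 4.0.16 (R 4.3.3) over all 22 libraries, with Benjamini-Hochberg adjustment over 14785 genes at 0.05. SE is the absolute log2 fold change divided by the square root of F, and intervals are 1.96 SE on either side. The script was tested on simulated data. Libraries of a group differed beyond sampling noise (lowest chi-square per degree of freedom 10.99). Each library is a separate mouse, per the labels. Alternatives were DESeq2, voom with quality weights (limma 3.58.1), other scalings, no filter, only the groups compared, a replicate block, a length and GC trend (loess, span 0.3) and leaving out each library; library totals and the TATA and CCAAT motifs were added after the data had been seen. The members and gene lists were chosen with earlier results of these data known. Named genes are all members, for each list up to 4 called genes with the smallest p in C26 against CT and up to 2 elsewhere, and the 3 most alike genes per member; markers, overlapping genes, Apob, Afp and Onecut2 beyond these were named where a statement turned on them. Some genes that the rule names are not reported here.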

Additional observations from a re-analysis of the deposited data

Results flagged for a closer look

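In 3 of 27 groups of member values the highest library stood apart from its group by Dixon's criterion, which chance meets in about 1 of 20 groups. Hnf4a was at 901.3 CPM in C26-TDCA 02, where the next library had 714.3. Cebpd was at 37.34 CPM in the same library, where the next had 25.03. Foxa2 was at 23.14 CPM in C26 06, where the next had 19.08. All 3 are high values, and none decided a call against CT: without each library in turn the Hnf4a difference between C26-TDCA and CT was 0.39 to 0.47, the Cebpd difference 2.29 to 2.61 and the Foxa2 difference between C26 and CT -0.61 to -0.41 (log2).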

How the results depend on the processing

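Of 216 member values in C26 against CT, each from another setting, 213 kept their direction and side of the threshold, as did 207 of 216 in C26-TDCA against CT and 227 of 234 in C26-TDCA against C26. The exceptions against CT were Hnf4a and Prox1 or Hnf4a and Cebpb with library totals, Onecut1 without CT 05 and Foxa2 without CT 02, which lost their calls, and Onecut1 in C26-TDCA, which gained one with library totals, with the trend removed (-0.61, adjusted p = 0.0350), with voom weights (-0.53, adjusted p = 0.0453), and without CT 01, CT 06 or C26-TDCA 06. With library totals 2292 genes were higher and 7872 lower in C26 against CT, and 2423 and 7397 in C26-TDCA against CT, with 3 members higher in each; in C26-TDCA against C26, 16 were lower. Genes called in C26-TDCA against C26 moved most: 14 higher and 9 lower with the length and GC trend removed, 41 and 4 with only those groups, 443 and 111 by DESeq2, 409 and 59 with voom weights, and 54 to 527 and 5 to 67 on leaving out a library. Members called lower ranged from 3 to 4 and from 2 to 4 against CT on leaving out a library. Values that changed sign between C26-TDCA and C26 were small and not called: Foxa1 0.0161, Foxa3 0.0425 and Cebpa 0.0598 with the trend removed, and, on leaving out a library, Hnf4a (-0.0062 to 0.0747, negative without C26-TDCA 02), Foxa1 (-0.1261 to 0.0346, positive without C26 08), Foxa3 (-0.0712 to 0.0009, positive without C26 06) and Onecut1 (-0.0100 to 0.274, negative without C26-TDCA 06). The cause was not tested. Deviations of same-numbered libraries correlated from -0.08 to 0.05 between C26 and CT (0 of 6 over 0.1). Between C26-TDCA and CT they correlated from -0.01 to 0.13 (1 of 6 over 0.1, 3 of 6 best with their own number). Between C26-TDCA and C26 the range was -0.20 to 0.34 (5 of 8 over 0.1, 2 of 8 best with their own number). The labels do not say whether equal numbers share a cage, litter or day, and these correlations cannot tell. With the replicate block 5 members were higher and 4 lower in C26, 5 and 3 in C26-TDCA against CT, and 0 between C26-TDCA and C26, where Onecut2, Zbtb20 and Nr3c1 had adjusted p = 0.0579, 0.0661 and 0.0599 (log2 differences 0.40, 0.63 and 0.37) and Apob 0.0440 (0.38). Foxa1 rests on 93 to 801 counts a library and Cebpd in CT on 35 to 147.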
